A study of Sus scrofa with 63 samples.

Results

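Cholesterol synthesis and sterol handling in the fetal pig jejunum were described by 31 genes, which cover the mevalonate pathway, the squalene and sterol ring steps, the sensing of sterols and their uptake, efflux, storage and transport. Members were found by name: every array probe whose gene name matched a member, in any letter case, was taken. This gave 52 probes of 25 members among 60305 probes on the array, and 44 of these probes, of 20 members, were bright enough to be tested. MVD, CYP51A1, EBP, SC5D, NPC1L1 and ABCG5 had no probe under these names. HMGCS1, ACAT2, IDI1, LSS and DHCR7 had only probes that stayed near background.

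Cells make cholesterol from acetyl-CoA through mevalonate, squalene and lanosterol, and the last steps reshape the sterol rings. When sterols in the endoplasmic reticulum run low, SCAP escorts SREBF2 to the Golgi, where it is cleaved into a factor that activates the genes of synthesis and uptake, whereas INSIG1 and INSIG2 hold the complex back when sterols are plentiful. In the small intestine, enterocytes also take up luminal sterol, esterify it with SOAT2, return plant sterol to the lumen through ABCG5 and ABCG8 and load HDL through ABCA1.

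The study asked how the jejunum matures before birth in breeds that differ in the survival of their newborns. One-colour Agilent arrays held the jejunum RNA of 63 male fetuses, with an array for each. Large White (LW) fetuses had an LW sire and an LW sow, and Meishan (MS) fetuses an MS sire and an MS sow. LWMS fetuses had an LW sire and an MS sow, and MSLW fetuses an MS sire and an LW sow. No fetus carried a transgene or had been treated, and sows were inseminated with mixed semen, so that LW and MSLW fetuses shared LW litters and MS and LWMS fetuses shared MS litters. At day 90 of gestation there were 9 LW, 6 MS, 9 LWMS and 8 MSLW fetuses, and at day 110 there were 9, 7, 9 and 6. The tissue was a whole segment of the middle jejunum with all its layers. In such bulk tissue, fewer cells of a type and less RNA per cell cannot be told apart.

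Between 51.2 and 87.6% of probes were well above background on each array, with the lowest share in an LW fetus of day 110 and the highest in an LWMS fetus of day 90. The enterocyte list (VIL1, EPCAM, CDH17, FABP2, ANPEP, APOA4, SI, LCT) was tested by 6 of its 8 genes, as VIL1 and CDH17 had no probe of these names. Its mean level was 2.82 to 4.47 over all day 90 fetuses and 0.266 to 5.45 at day 110. It was lowest in MS fetus 632 (0.266) and LW fetus 575 (1.28), both of day 110, on the log2 scale explained below. The adrenal genes STAR and CYP21A2 and the liver gene CYP7A1 did not pass the filter and were well above background on at most 23, 19 and 7 of 63 arrays. Results for the members are therefore also given with the enterocyte level as a covariate and without these 2 fetuses.

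Some probes of a member are not separate measurements, as their sequences show. Both MVK probes hold the same 60 bases. The brightest SQLE probe and the next one share 57 of 60 bases. Their first 30 bases follow, with the shared stretch in capitals, and after them the other SQLE probes, in full and without capitals, since they share no such stretch with these.
SQLE A_72_P444903: attCAGTATCTGAGACAAGTCATTGTGGGA
SQLE A_72_P088686: CAGTATCTGAGACAAGTCATTGTGGGATCT
SQLE A_72_P705210: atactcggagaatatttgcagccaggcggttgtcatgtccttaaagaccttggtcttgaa
SQLE O12690: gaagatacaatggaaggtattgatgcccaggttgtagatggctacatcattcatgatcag

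STARD4 had a single probe, and the last 30 of its bases are shown because the result on age turns on it alone; the capitals mark AATAAA, the usual signal for polyadenylation. The tested INSIG2 probe is shown by its first 30 bases, with its opening run of 5 GT repeats in capitals, since repeats of this kind are common in genomes. RefSeq also lists a pseudogene of the name INSIG2, so that the signal is uncertain as a measure of the gene.
STARD4 A_72_P295104: aaatccaccaagaagtaAATAAAgagtttt
INSIG2 A_72_P140776: GTGTGTGTGTatacacacacatacatatat

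All levels below are log2 intensities, background-corrected, with the 75th percentile of that array set to 0, and each member is given by its brightest tested probe unless another is named. A change with age (day 110 minus day 90) or a difference between MS and LW counted as called if its adjusted p did not exceed 0.01 and its size on the log2 scale reached 0.5. Effects of the sow's breed or the sire's breed (MS minus LW) were called at an adjusted p under 0.05. All p-values are from limma, two-sided and adjusted by the Benjamini-Hochberg method over 40515 tested probes. Litter mates counted as independent fetuses. Fetuses of different ages or of different sow breeds came from different litters, and spread between litters is not in the model. Adjusted p-values for age, for MS against LW, for the sow's breed and between the crosses may therefore be too small.

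With age, 1 of 20 tested members rose and none fell, where 13.8% of all tested probes were called, 6.07% as higher and 7.71% as lower. The median change of the members was 0.07, beside -0.02 over all tested probes, and 9 of the 20 had an unadjusted p under 0.05. The member that rose was STARD4, which encodes a soluble carrier that moves cholesterol between membranes.

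STARD4 in LW fetuses was -1.42 at the lowest, -1.08 at the median and -0.74 at the highest at day 90, and -0.73, 0.09 and 1.04 at day 110. In LWMS fetuses the corresponding levels were -1.31, -0.86 and -0.48 at day 90 and -0.47, 0.91 and 1.47 at day 110. In these genotypes all fetuses of day 110 were above all of day 90, with the nearest fetuses of both ages almost level. In MSLW fetuses STARD4 was -1.66, -1.35 and -0.11 at day 90 and 0.07, 0.56 and 0.86 at day 110, again without overlap. In MS fetuses it was -1.44, -0.94 and 0.08 at day 90 and -1.55, 0.22 and 1.40 at day 110, and the ages overlapped. The lowest MS value of day 110 belonged to fetus 632, the one with the lowest enterocyte level.

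Over the 4 genotypes STARD4 rose by 1.41 ± 0.14 on the log2 scale (SE, adjusted p = 3.45e-12), a 2.66-fold difference. A difference at least as large in this direction was found for 366 of 40515 probes. The rise was 1.20 ± 0.26 in LW (adjusted p = 0.00106), 1.68 ± 0.26 in LWMS (2.54e-06) and 1.66 ± 0.30 in MSLW (8.41e-05), while in MS the difference of 1.11 ± 0.31 missed the threshold (adjusted p = 0.0174). STARD4 was the 1 member called in each of LW, LWMS and MSLW, where 4.76%, 9.86% and 5.43% of all tested probes were called, and no member was called in MS, where 3.12% were and 3 members had an unadjusted p under 0.05. Without fetuses 632 and 575 the MS difference was called, at 1.41 (adjusted p = 0.000557). The change with age did not differ detectably between the breeds (MS minus LW, -0.09, 95% interval -0.91 to 0.72, adjusted p = 1). Arrays of both ages lay on each slide, and the difference within slides was positive on 8 of 8, between 0.92 and 1.99.

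**Figure D1:**
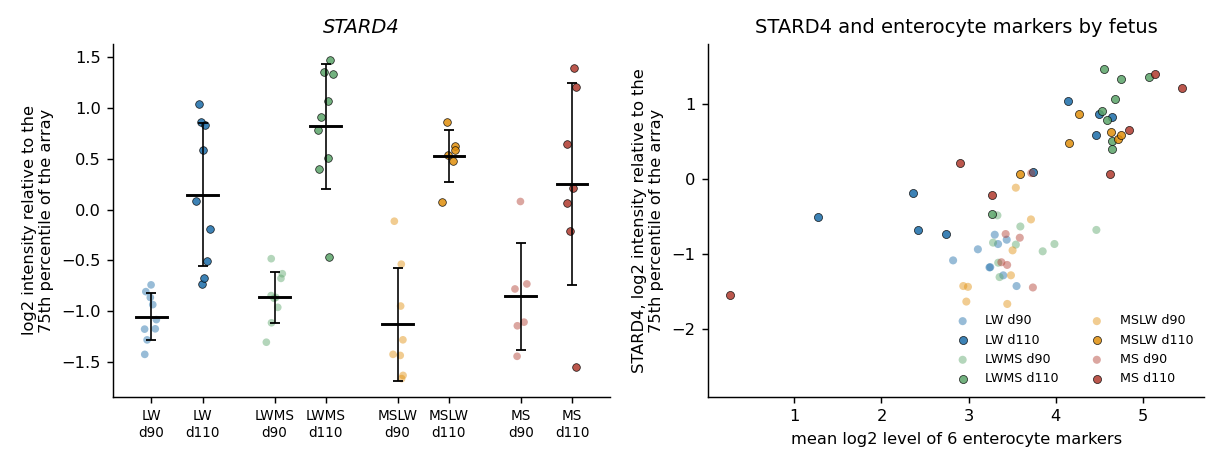
Left, STARD4 level (log2 intensity, array 75th percentile at 0) by genotype and day, with 1 point per fetus, the mean as a line and the SD as bars; all day 110 fetuses lie above the day 90 fetuses of their genotype except in MS. Right, the same levels against the mean log2 level of 6 enterocyte markers, where MS fetus 632 (0.266) lies at the lower left.

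In the mevalonate pathway, none of the 3 tested members was called with age. MVK, the mevalonate kinase, differed by 0.20 (95% interval 0.02 to 0.39) and PMVK, the next kinase, by -0.12 (-0.42 to 0.18). FDPS, which makes farnesyl diphosphate, differed by 0.25 (0.10 to 0.41, adjusted p = 0.00771), under the minimum size. The intervals of these members thus end below the minimum size of 0.5.

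Among the squalene and sterol ring steps, none of 6 was called by its brightest probe. HSD17B7, a ketoreductase of the removal of methyl groups at carbon 4, differed by 0.50 ± 0.10 (adjusted p = 6.93e-05), just under the minimum size, and its other probe by 0.54 ± 0.11 (adjusted p = 8.01e-05), just over it. HSD17B7 had medians of 0.16 in LW, 0.29 in LWMS, -0.12 in MSLW and 0.25 in MS at day 90, and of 0.82, 0.82, 0.50 and 0.90 at day 110. Its ranges overlapped between ages in every genotype. NSDHL, the dehydrogenase of the same removal, differed by 0.25 (adjusted p = 0.00416) and TM7SF2, a sterol reductase, by -0.34 (adjusted p = 0.00663), both under the minimum size. SQLE, the squalene epoxidase, differed by 0.01 (95% interval -0.19 to 0.20). FDFT1, the squalene synthase, differed by -0.16 (-0.34 to 0.02) and MSMO1, the sterol methyl oxidase, by 0.20 (0.02 to 0.38). The other FDFT1 probe differed by -0.33 (adjusted p = 0.00571), under the minimum size.

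Of the 6 members of sterol sensing, none was called with age. SREBF2, the factor of cholesterol synthesis, differed by 0.07 (95% interval -0.12 to 0.27) and its other probe by -0.10 (-0.29 to 0.09). SREBF1, its relative of fatty acid synthesis, differed by 0.07 (-0.15 to 0.30) and SCAP by -0.04 (-0.15 to 0.07). INSIG1 differed by -0.43 ± 0.10 (adjusted p = 0.000738) by its brightest probe, under the minimum size, but by -0.02 ± 0.14 by its other probe, so that its probes disagreed. With the enterocyte level as a covariate the brightest INSIG1 probe was called as lower with age. INSIG2 differed by 0.20 (95% interval -0.05 to 0.44) and NR1H3, a receptor for oxysterols, by -0.21 (-0.43 to 0.01). The other NR1H3 probes differed by -0.19, -0.35 and -0.38 (adjusted p = 0.168, 0.0241 and 0.00756), all under the minimum size.

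Apart from STARD4, no member of uptake, efflux and storage was called. NPC1, which exports cholesterol from lysosomes, differed by -0.22 (95% interval -0.43 to -0.01) and ABCA1 by -0.21 (-0.47 to 0.05). ABCG8, a half-transporter of plant sterols, differed by 0.38 (-0.01 to 0.77), on a dim probe that was well above background on 53 of 63 arrays. SOAT2 differed by 0.08 (-0.26 to 0.41).

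**Figure D2:**
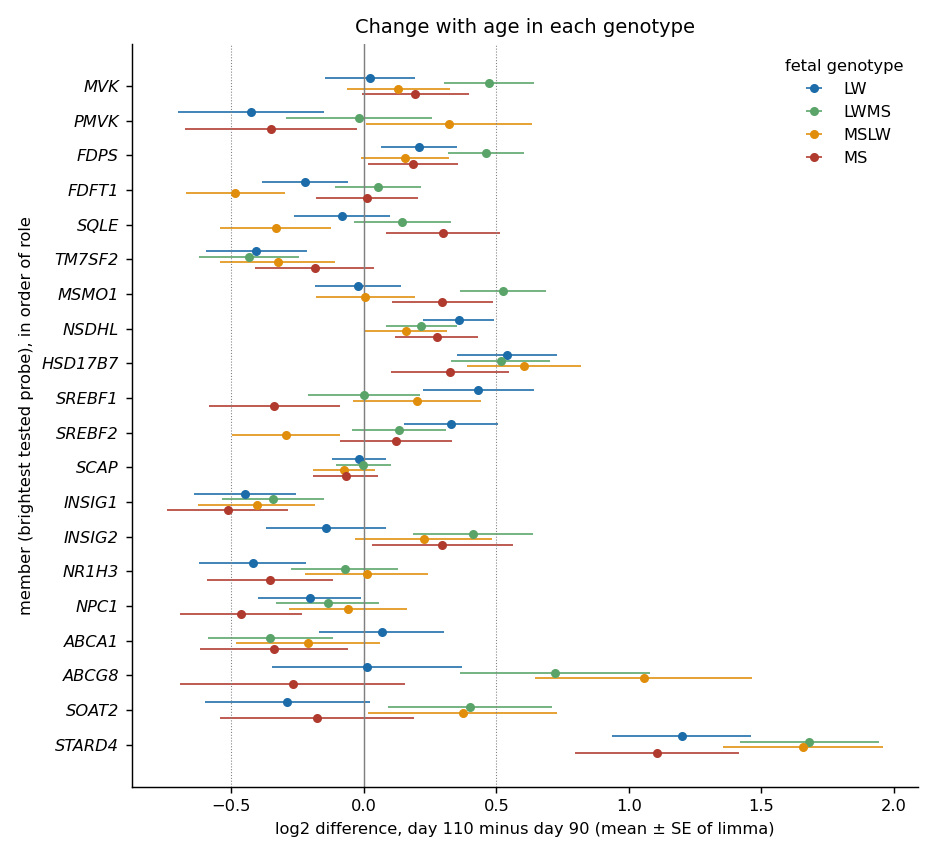
Log2 difference between day 110 and day 90 for the 20 tested members (rows) in each genotype (colours), with SE as bars and dotted lines at the minimum size of 0.5. STARD4 stands at 1.11 to 1.68, and the other members lie between -0.51 (INSIG1 in MS) and 1.06 (ABCG8 in MSLW), none of them called.

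A member left out by its name rose as well. The array lists CYP51, whose RefSeq synonym is CYP51A1, the lanosterol demethylase, with 4 probes that were well above background on all 63 arrays. These probes were looked up after the values of the other members had been seen. All 4 rose with age, by 0.87 ± 0.10 (adjusted p = 1.9e-10), 0.73 ± 0.10 (7.43e-08), 0.62 ± 0.10 (3.84e-07) and 0.55 ± 0.09 (1.86e-06). By the first of them, CYP51A1 in LWMS was -2.40 at the lowest, -1.83 at the median and -1.51 at the highest at day 90, and -1.47, -0.70 and 0.02 at day 110, without overlap. In LWMS it rose by 1.19 ± 0.19 (adjusted p = 2.5e-06) and in LW by 0.81 ± 0.19 (0.0017). The differences of 0.75 in MS (adjusted p = 0.0221) and 0.75 in MSLW (0.0134) missed the threshold. This probe had the largest change of the 4 and was not the brightest. By the brightest, the differences were 1.06 in LWMS (adjusted p = 1.01e-05) and 0.42 in LW (0.122). In MS the brightest gave 0.64 (adjusted p = 0.0477) and in MSLW 0.38 (0.236), so that only LWMS was called. The call in LW rested on the first probe alone. The probe that rose by 0.55 was also higher with an MS sow (0.30, adjusted p = 0.0203) and lower with an MS sire (-0.30, 0.0315). The other CYP51A1 probes were called neither by sow nor by sire.

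Other dropped members could also be traced. An ACAT2 probe under a locus name was higher with an MS sow by 0.50 ± 0.11 (adjusted p = 0.00102), and an SC5D probe, matched by accession, was called in none of the comparisons with age, between the breeds, by sow or by sire. Probes for IDI1 and DHCR7 were linked only by their description. The IDI1 probe differed by 2.26 ± 0.57 between MS and LW at day 110 (adjusted p = 0.00464). It was higher with an MS sire by 0.99 ± 0.29 (adjusted p = 0.0221). This probe was well above background on 57 of 63 arrays. The pair of DHCR7 probes moved in opposite directions with the sow's breed, by 0.28 and by -0.32. Between MS and LW at day 110 they differed by 0.51 (adjusted p = 0.0762) and by -0.97 (0.000965, called). No direction can therefore be given for DHCR7.

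Between the breeds, SQLE was the member with a difference at both ages. By its brightest probe, SQLE was lower in MS than in LW fetuses. At each age 2 of 20 members were called, all of them lower in MS (at day 90 SQLE and INSIG2, at day 110 SQLE and ABCA1). Of all tested probes, 3.58% were called at day 90, 1.36% as higher and 2.21% as lower, and 5% at day 110, 1.84% as higher and 3.15% as lower. The median difference of the members was 0.04 at day 90 and -0.03 at day 110, beside 0.03 and 0.02 over all tested probes.

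SQLE at day 90 was 0.16, 0.57 and 1.21 in LW (lowest, median and highest) and -1.53, -0.31 and -0.20 in MS. All 9 LW fetuses were above all 6 MS fetuses. LWMS fetuses, with -0.02, 0.17 and 0.35, and MSLW fetuses, with -0.40, -0.07 and 0.25, had medians between those of the pure breeds and overlapped each other. LWMS ran into the range of LW and MSLW into those of both pure breeds, while all LWMS fetuses were above all MS fetuses. At day 110 SQLE was -0.18, 0.54 and 1.13 in LW, -0.48, 0.28 and 0.81 in LWMS, -0.88, -0.38 and -0.02 in MSLW and -1.16, -0.09 and 0.30 in MS. At this age LW and MS overlapped, and MSLW fetuses had the lowest median.

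MS minus LW for SQLE was -1.19 ± 0.20 at day 90 (adjusted p = 2.84e-05), a 2.28-fold difference, and -0.81 ± 0.19 at day 110 (adjusted p = 0.00322). The difference did not change detectably with age (interaction 0.38, 95% interval -0.18 to 0.94, adjusted p = 0.94). By the sire's breed SQLE was lower with an MS sire (difference -0.73 ± 0.10, adjusted p = 1.5e-07), and 428 probes were lower by at least as much. By the sow's breed the difference was -0.26 ± 0.10 (adjusted p = 0.0591), not past the threshold. Sire's and sow's effects were set against each other in the reciprocal crosses, a comparison added after the data had been seen, in which MSLW minus LWMS equals the sire's effect minus the sow's. For SQLE this was -0.47 ± 0.14, with a 95% interval of -0.75 to -0.20, but its adjusted p of 0.0593 missed the threshold, so that the effects were not shown to differ. With an MS sire SQLE was lower on 8 of 8 slides, and MS was below LW on the 6 slides with both at one age.

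The other SQLE probes had differences of the same sign. The probe that overlaps the brightest one differed by -1.22 ± 0.20 at day 90 (adjusted p = 1.61e-05) and by -0.71 ± 0.10 with the sire's breed (3.44e-07), but missed the threshold at day 110 (adjusted p = 0.0198). O12690 differed by -0.45 ± 0.15 with the sire's breed (adjusted p = 0.0454). Between the breeds O12690 differed by -0.77 at day 90 and -0.71 at day 110, not called (adjusted p = 0.125 and 0.11). A_72_P705210 differed by -0.34 ± 0.12 with the sire's breed (adjusted p = 0.068) and by -0.49 and -0.37 between the breeds at day 90 and day 110, past no threshold. The calls of SQLE between the breeds thus came only from the overlapping pair of probes. The call of SQLE at day 110 was also lost with arrays centred on their median, at -0.68 (adjusted p = 0.0688).

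By the sow's breed, 3 of 20 members were called, 1 as higher and 2 as lower with an MS sow, where 16% of all tested probes were called, 7.26% as higher and 8.71% as lower. The count depended on the model: it was 7 with slide as a block, beside 7797 of 40515 probes, and 10 with array weights, beside 13193. MSMO1 was the one that was higher. At day 110 MSMO1 was -0.12, 0.71 and 0.99 in LWMS and -0.20, 0.61 and 1.05 in MS, but -0.58, -0.12 and 0.32 in MSLW and -0.0029, 0.23 and 0.64 in LW. At day 90 its medians were 0.09 in LWMS, 0.18 in MS, -0.30 in MSLW and 0.32 in LW, so that at this age LW, with an LW sow, had the highest median. Ranges overlapped between the sows' breeds at both ages. Over both ages MSMO1 was higher with an MS sow by 0.29 ± 0.09 (adjusted p = 0.0182), and its other probes by 0.28 and 0.31, also called. The latter probe covers nearly the same bases as the brightest, with a longest unbroken match of 30 bases, and is not a separate measurement. Within slides the sow's effect on MSMO1 was positive on 6 of 8, from -0.16 to 0.40. In the crosses MSLW minus LWMS was -0.52 ± 0.12 (adjusted p = 0.014), where 1.62% of all tested probes passed. For MSMO1 the sow's and the sire's effects thus differed only under a model that takes litter mates as independent. These crosses came from different litters, and a difference between litters cannot be told apart from it. MSMO1 was the single member that passed this test.

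ABCA1 was lower with an MS sow. At day 90 it was 1.52, 1.92 and 2.51 in LW, 1.46, 1.83 and 2.30 in MSLW, 1.18, 1.84 and 2.07 in LWMS and 0.39, 1.20 and 2.65 in MS. At day 110 it was 1.19, 2.05 and 2.78 in LW, 1.20, 1.54 and 2.32 in MSLW, 0.79, 1.42 and 2.10 in LWMS and -0.03, 1.14 and 2.38 in MS. MS fetuses were spread most widely at each age and overlapped all other groups. The sow's effect was -0.50 ± 0.13 (adjusted p = 0.00439), and MS minus LW at day 110 was -1.05 ± 0.25 (adjusted p = 0.0032), which with arrays centred on the median was -0.93 and missed the threshold (adjusted p = 0.0132). The difference of -0.64 ± 0.26 at day 90 was not called (adjusted p = 0.153). Within slides the sow's effect on ABCA1 was negative on 7 of 8, from -1.13 to 0.09. The sire's effect on ABCA1 had the same sign, at -0.35 ± 0.13, but missed the threshold (adjusted p = 0.0967). In the crosses MSLW minus LWMS was 0.16 ± 0.18 (adjusted p = 0.677). For ABCA1 the sow's and the sire's effects were thus not shown to differ.

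INSIG2 was lower with an MS sow and with an MS sire, but close to background. Its levels at day 90 were -3.92, -3.20 and -2.47 in LW, -4.28, -3.61 and -3.55 in LWMS, -4.36, -3.99 and -2.97 in MSLW and -6.01, -4.41 and -3.37 in MS. At day 110 they were -4.35, -3.22 and -2.95 in LW, -3.54, -3.44 and -2.94 in LWMS, -4.11, -3.86 and -2.96 in MSLW and -4.81, -4.35 and -3.52 in MS. The groups overlapped at both ages, and the probe was well above background on 55 of 63 arrays. MS minus LW at day 90 was -1.21 ± 0.25 (adjusted p = 0.000703), the sire's effect was -0.59 ± 0.12 (6e-04) and the sow's -0.40 ± 0.12 (0.0188). Within slides the sire's effect on INSIG2 was negative on 8 of 8 and the sow's on 6 of 8, the latter from -0.95 to 0.51. With normexp background correction the 3 differences became -0.36, -0.22 and -0.16, and none was called (adjusted p = 0.149, 0.0521 and 0.123).

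**Figure D3:**
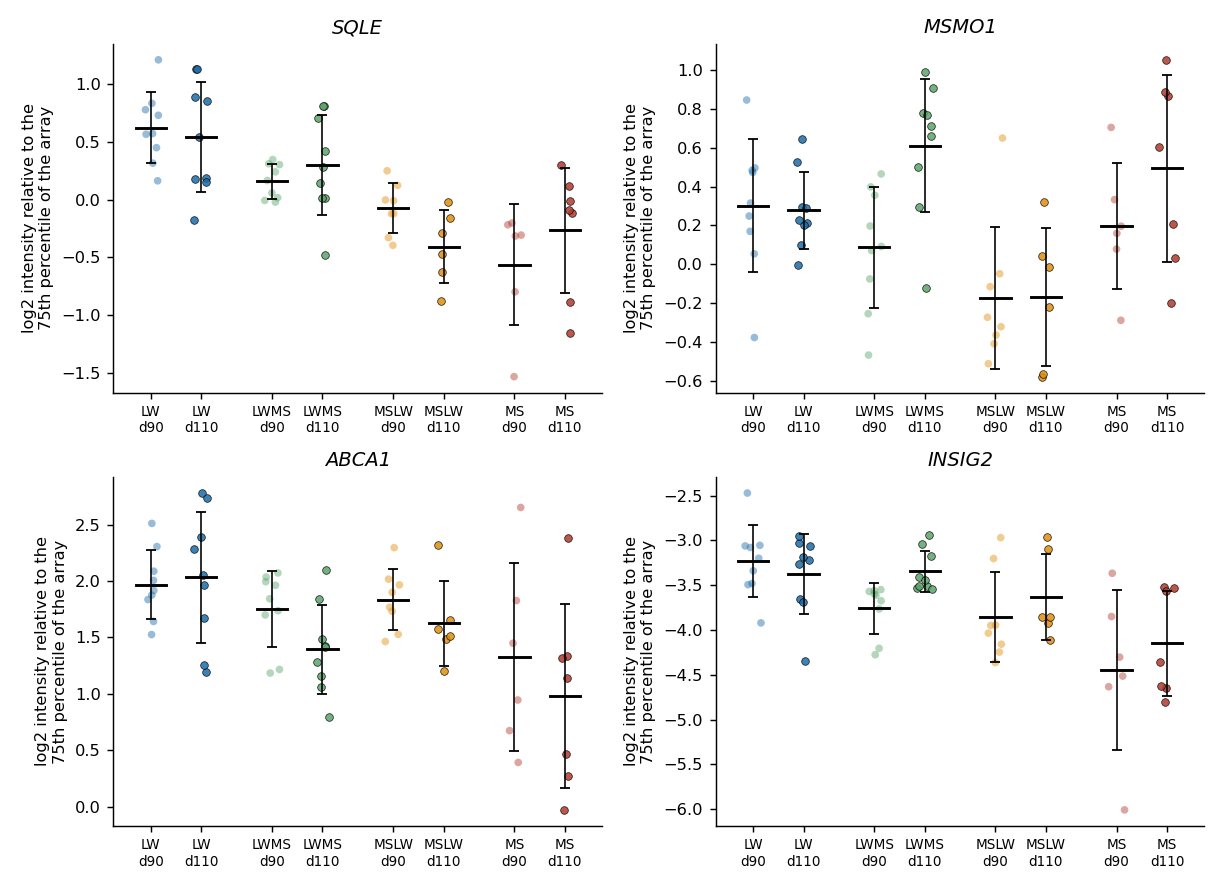
Levels (log2 intensity, array 75th percentile at 0) of SQLE, MSMO1, ABCA1 and INSIG2 by genotype and day, with 1 point per fetus, the mean as a line and the SD as bars. The day 90 LW and MS fetuses are separate for SQLE (0.16 and up against -0.20 and down), and for INSIG2 and ABCA1 LW and MS overlap at both ages.

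By the sire's breed, 2 of 20 members were called, SQLE and INSIG2, both lower with an MS sire, beside 6.95% of all tested probes, 3.11% as higher and 3.84% as lower. The paper, by contrast, found the paternal genotype to affect none of its probes. For the maternal genotype it reported a moderate effect, in interaction with gestational age. Its model held the sow as a random effect, which the model used here does not. The reason for the different outcomes was not tested. By the brightest probe, the median sire's effect of the members was -0.07, beside 0.01 over all tested probes. A positive value was found for 15% of the members but 51.3% of all tested probes. This share depends on the probe, as the sign differed between probes for MVK, SREBF1, SREBF2, INSIG1 and NR1H3. For the sow's breed the median was 0.10, beside 0.02, and 75% of the members but 54.1% of all tested probes were positive. The FDPS effects were 0.18 for the sow (adjusted p = 0.116) and -0.15 for the sire (0.278), those of FDFT1 0.02 and -0.22 (0.89 and 0.131) and those of MVK 0.22 and -0.04 (0.0948 and 0.875). No member was called in the interaction of breed with age, where 0.0173% of probes were called, or of the sow's breed with age, where 0.388% were; at an unadjusted p under 0.05 there were 1 and 4.

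**Figure D4:**
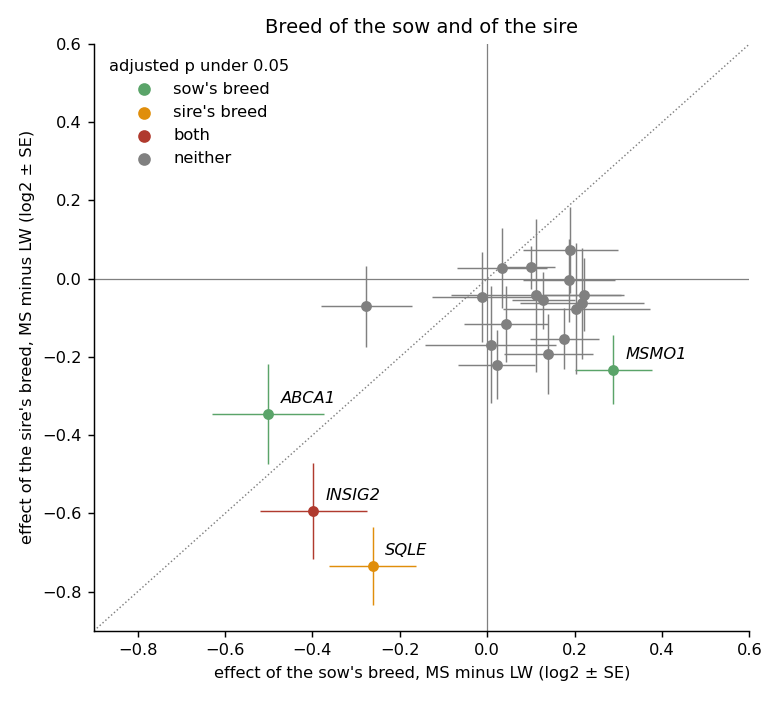
Effect of the sow's breed (horizontal) against that of the sire's breed (vertical), each as MS minus LW on the log2 scale with SE, for the 20 tested members; the dotted line marks equal effects. SQLE (-0.26, -0.73) and MSMO1 (0.29, -0.23) lie below the line, and ABCA1 (-0.50, -0.35) lies above it.

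Fetuses of the same group also differed, and some members went up and down together while others ran against each other. HMGCS1 was to be the reference for this comparison, but it had no tested probe, and SQLE was taken in its place. Levels were centred on the group mean and SQLE was correlated with each of the 19 other members over 63 fetuses, with 100000 permutations within groups and adjustment over the 19 members. SREBF2 had the highest correlation with SQLE (r = 0.62, rho = 0.63, permutation p = 1e-05 for both, the smallest that these permutations can give, adjusted p = 0.00019). FDFT1 followed (r = 0.59, rho = 0.56, permutation p = 3e-05 and 7e-05, adjusted p = 0.00028 and 0.00066). Without the 2 fetuses farthest from the SQLE median, r was 0.58 and 0.59.

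SOAT2 (r = -0.42, rho = -0.35, permutation p = 0.0077 and 0.014, adjusted p = 0.029 and 0.046) and PMVK (r = -0.41, rho = -0.38, permutation p = 0.0048 and 0.0059, adjusted p = 0.029 and 0.037) ran against SQLE. ABCG8 did so by r (-0.37, permutation p = 0.0073, adjusted p = 0.029) but not by rho (-0.31, permutation p = 0.024, adjusted p = 0.059). Without the 2 farthest fetuses r was -0.44, -0.39 and -0.36. TM7SF2 (r = 0.39, rho = 0.37, permutation p = 0.017 and 0.011, adjusted p = 0.052 and 0.041) and NSDHL (r = 0.32, rho = 0.36, permutation p = 0.019 and 0.0083, adjusted p = 0.053 and 0.039) ran with SQLE by rho but did not pass by r. In all, 5 of 19 members passed by r and 6 by rho, 4 of them by both. The middle 80% of all tested probes had r between -0.32 and 0.33 with SQLE. The median r of the 19 members was 0.003, beside -0.02 over all tested probes, and 10 of them were positive. As a set the members did not move with SQLE, and the share of all tested probes that would pass was not tested. Within single slides, r with SQLE was positive for SREBF2 on 8 of 8 slides (0.31 to 0.92) and for FDFT1 on 7, and negative for SOAT2 on every slide.

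The enterocyte level varied between fetuses of a group, and many probes on the array moved with it, those of most members among them. Over the same 63 fetuses, 16 of 20 members were correlated with the mean level of the 6 enterocyte markers at an adjusted permutation p under 0.05, 10 positively and 6 negatively; this comparison was added after the data had been seen. The smallest r in size among the 16 was 0.27, and 52.9% of all tested probes had an r at least as large in size, with the middle 80% between -0.51 and 0.56. SOAT2 had the highest correlation (r = 0.90, rho = 0.84), followed by STARD4 (r = 0.76, rho = 0.63), PMVK (r = 0.73, rho = 0.72) and NR1H3 (r = 0.62, rho = 0.71). Each of these 4 had a permutation p of 1e-05 for r and for rho, the smallest possible, with an adjusted p of 4e-05 and 5e-05. ABCG8 was also among the highest (r = 0.61, rho = 0.49, permutation p = 3e-05 and 0.00024, adjusted p = 1e-04 and 0.00069).

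On the other side stood TM7SF2 (r = -0.61, rho = -0.55, permutation p = 0.00031 and 6e-05, adjusted p = 0.00089 and 0.00024), SREBF2 (r = -0.61, rho = -0.51, permutation p = 1e-05 and 0.00021, adjusted p = 4e-05 and 0.00069) and ABCA1 (r = -0.54, rho = -0.45, permutation p = 0.00059 and 0.0014, adjusted p = 0.0015 and 0.0029). SQLE was lower where the markers were higher (r = -0.45, rho = -0.32, permutation p = 0.004 and 0.027, adjusted p = 0.0076 and 0.035). Single markers differed, as r with STARD4 ran from 0.24 for EPCAM to 0.78 for FABP2. With SQLE it ran from -0.17 for EPCAM to -0.49 for APOA4. Without the 2 fetuses farthest from the median of the markers, r was 0.87 for SOAT2, 0.69 for STARD4, 0.68 for PMVK, 0.65 for NR1H3, 0.46 for ABCG8, -0.65 for TM7SF2, -0.52 for SREBF2 and -0.37 for both ABCA1 and SQLE. For FDPS r was 0.45 with and 0.21 without these fetuses, although its rho over all 63 was 0.42 (permutation p = 8e-04, adjusted p = 0.0018). For NPC1 r was 0.36 with and 0.15 without them, and its rho of 0.22 did not pass (permutation p = 0.11, adjusted p = 0.12), so that its relation rested on those fetuses. With group and slide both taken out, r was 0.90 for SOAT2 and 0.76 for STARD4.

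These relations bear on the results above, and values with the enterocyte level as a covariate stand beside them. This level does not separate the number of enterocytes from the RNA per cell. The age change of STARD4 became 1.12 ± 0.10 (adjusted p = 7.76e-14), and it was called in each of the 4 genotypes, at 0.98 in MS (adjusted p = 0.000601) up to 1.21 in LWMS. The sire's effect on SQLE was -0.72 (adjusted p = 1.33e-08), the sow's effect on ABCA1 -0.40 (0.00874) and that on MSMO1 0.25 (0.0398). Without fetuses 632 and 575, 7 members were called by the sow's breed (MVK, FDPS and MSMO1 as higher, SQLE, INSIG1, INSIG2 and ABCA1 as lower), beside 8220 of 40515 tested probes. The other INSIG1 probe had a sow's effect of the opposite sign over all fetuses (0.32 against -0.28), so that no direction can be given for INSIG1. HSD17B7 was also called with age without them (0.55, adjusted p = 1.45e-06). Between fetuses of the same group and at equal mean level of the enterocyte markers, r with SQLE was 0.48 for both SREBF2 and FDFT1. It was -0.03 for SOAT2, -0.13 for PMVK and -0.14 for ABCG8. Among the remaining members, those farthest from zero were FDPS (0.37), NSDHL (0.36), MSMO1 (0.34) and, in the other direction, ABCA1 (-0.37). These r values at equal marker level were not tested.

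**Figure D5:**
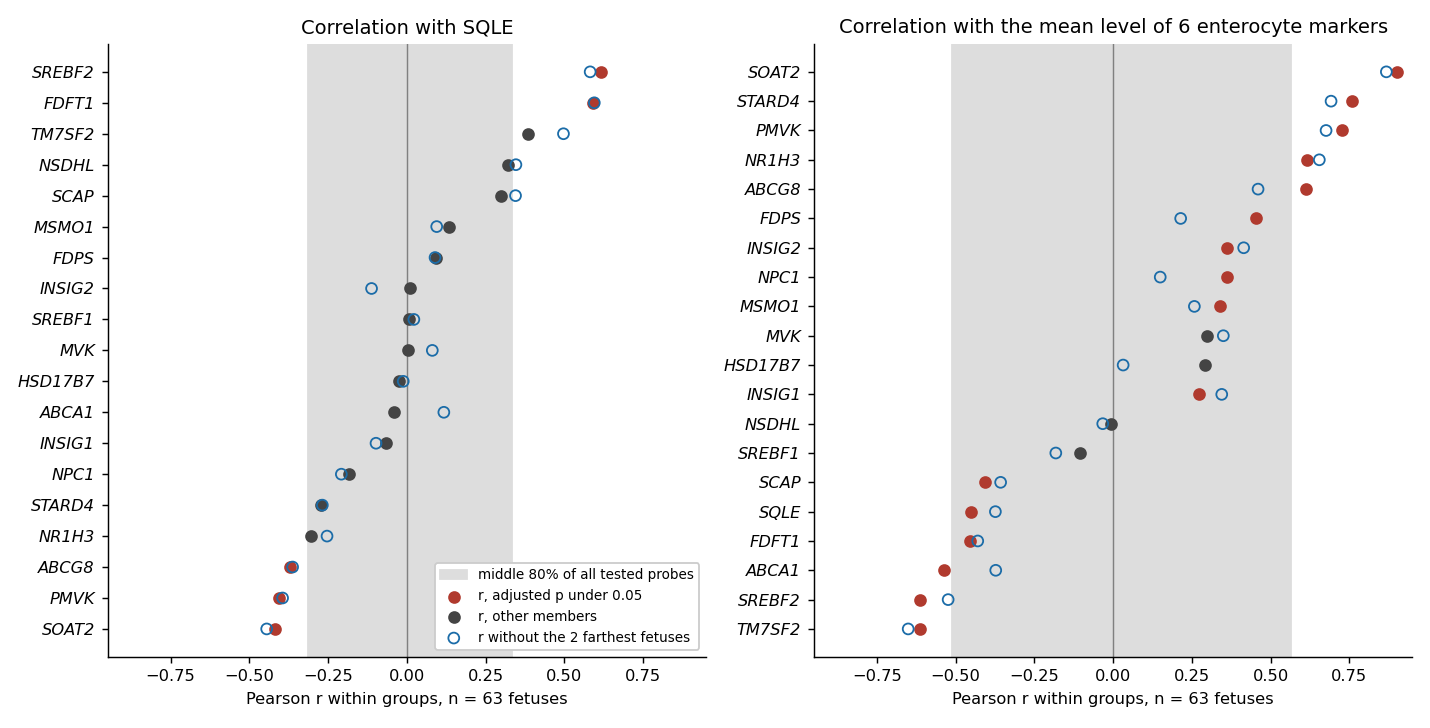
Pearson r of each member with SQLE (left, 19 members) and with the mean level of 6 enterocyte markers (right, 20 members) over 63 fetuses, with levels centred on the group mean; red points passed an adjusted permutation p under 0.05, open circles leave out 2 fetuses, and the grey band holds the middle 80% of all tested probes. SREBF2 and FDFT1 lead on the left (0.62 and 0.59), and SOAT2 and STARD4 on the right (0.90 and 0.76).

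Beyond the members, 30 of 39 other genes of the pathway were tested. With age, 2 rose and 2 fell (13.3%, beside 13.8% of all tested probes), with a median change of -0.02. CYP27A1, which makes 27-hydroxycholesterol, rose by 1.36 ± 0.19 (adjusted p = 2.63e-08) and MYLIP, a ubiquitin ligase, by 0.50 ± 0.08 (1.69e-06). NPC2, the lysosomal partner of NPC1, fell by 1.06 ± 0.17 on the log2 scale (adjusted p = 9.81e-07) and APOE, an apolipoprotein, by 0.83 ± 0.11 (2.71e-08). MS minus LW was called for LCAT at day 90 (-1.42, adjusted p = 0.00177) and for STARD3 (0.62, adjusted p = 0.00498) at day 110. Genes named here besides the 4 called with age were chosen after their values had been seen. LCAT esterifies cholesterol in plasma, and STARD3 is an endosomal carrier. By the sow's breed 5 were higher and 1 lower (20%, beside 16% of all tested probes). By the sire's 1 was higher and 2 lower (10%, beside 6.95%). Between MS and LW, 3.33% of the 30 genes were called at day 90 and 6.67% at day 110, beside 3.58% and 5% of all tested probes. These shares are near those of all tested probes.

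Of 13 targets of SREBF1 in fatty acid synthesis, 10 were tested, and none was called with age (median -0.12), beside 13.8% of all tested probes. With an MS sow ACSS2 was higher (0.25, adjusted p = 0.00705) and ELOVL6 (-0.53, 0.0165) and LPIN1 (-0.65, 0.00187) were lower, which is 30% beside 16% of all tested probes. Of 10 genes of cell division 9 were tested, and MCM2 (-0.78, adjusted p = 9.86e-10) and CCNB1 (-0.54, 1.88e-06) fell with age, or 22.2%. Among the enterocyte markers SI rose by 1.67 (adjusted p = 0.000423) and LCT by 1.37 (1.32e-05), and ANPEP fell by 0.59 (0.00208). In the lists of other cell types, ACTA2 (-0.55, adjusted p = 1.73e-08) fell with age, as 1 of 5 tested genes of smooth muscle. Of 4 tested genes of enteric neurons and glia, ELAVL4 (-0.63, 0.00172) and UCHL1 (-0.64, 2.14e-06) fell. HBB, the 1 tested gene of red cells, fell as well (-1.68, 1.96e-06). Of 4 tested leukocyte genes only CD163 of macrophages was called, as higher (0.94, 5.77e-08). Of these 4, 2 had a positive difference, and the lowest was -0.53. Their part in the results for the members was not tested.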

How the data were processed

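Jejunum RNA of 63 fetuses was hybridised to Agilent porcine arrays on 8 slides, with groups taken from the labels. Files deposited by the authors hold scanner output of Agilent Feature Extraction 10.10.1.1, with linear intensity per spot, background-corrected by that software, and flags, which enter here as yes or no. They also deposited a matrix of normalized log2 values, used here as an alternative. The genome build behind the probes is not given in the sources used here.

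From the deposited intensity, log2 values were taken and the 75th percentile of each array subtracted. Control spots (1319 of 61625) were dropped, and spots marked as outliers became missing values. Testing required a signal well above background in 75% or more of the fetuses of any group, which kept 40515 of 60305 probes. Values near background depend on the correction used. limma 3.58.1 in R 4.3.3 fitted the 8 group means. Sows, which the study modelled as random, are not named in the labels and could not enter, so that p-values take litter mates as independent. Gene names were checked against RefSeq (Sscrofa11.1).

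A member was represented by its brightest tested probe. All members with a tested probe are named. Lowest, median and highest levels are given for members called with age (the 8 with the largest change), between breeds or by sow or sire (the 6 with the largest difference in each). Members and lists were chosen with earlier results of these data known. The steps were tested on simulated data with 200 of 40515 probes changed. Of changes of 1 on the log2 scale, 95% were recovered for age, 45% between MS and LW at day 90, 94% by sow and 96% by sire. Of changes of 0.6, 57%, 12%, 69% and 65% were. The simulated noise was independent between fetuses and between probes and held no litter effect. In the data 5583 probes were called with age, far more than were changed in the simulation. These shares therefore do not give the share of true differences found in the data. The number of arrays limits the precision. Alternatives were the deposited matrix, normexp (offset 50), quantile and median scaling, other filters, slide block, array weights, the second probe and leaving out fetuses. Some other genes of the pathway are not reported here by name, although the counts include them.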

Additional observations from a re-analysis of the deposited data

Results flagged for a closer look

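In 48 groups of fetuses (6 members with levels by group, in 8 groups each) 3 fetuses stood far from the rest of their group, by more than the 95% critical value of Dixon's ratio of gap to range, which chance exceeds in about 1 of 20 groups. HSD17B7 was -0.763 in MS fetus 632 of day 110, with 0.517 as the nearest value. This is the fetus with the lowest enterocyte marker level. HSD17B7 was also low, at 0.295, in LWMS fetus 611 of day 110, next to 0.711. MSMO1 was 0.65 in MSLW fetus 498 of day 90, where the nearest value was -0.0489. On these arrays 61.3, 66.3 and 68.3% of probes were well above background.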

How the results depend on the processing

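Of 147 counts of called members under alternatives 116 stayed within 1.5 times the main count, and of 150 differences of named members 134 kept direction and call, 9 lost the call and 7 gained it. The deposited matrix, testing without a filter on dim probes and leaving out the arrays with the lowest and highest share of probes above background moved no count of called members by more than 1.5 times. In the following, counts are out of 20 tested members unless stated, and the main counts were 1 with age, 1 in LW, LWMS and MSLW, 0 in MS, 2 between the breeds at each age, 3 by sow and 2 by sire. Normexp correction gave 1 at day 90, 1 by sire and 8 members correlated with SQLE (main 5), and quantile normalization gave 1 at day 90. Centring on the median gave 2 with age and 0 at day 110, and it moved the median of all probes at day 110 to 0.147 and by sow to 0.122. Probes well above background on all arrays (18 members) gave 1 at day 90 and 1 by sire. Slide as a block gave 1 in MS (INSIG1) and 7 by sow. Array weights gave 3 with age, 2 in LW, 1 in MS, 6 in LWMS, 2 in MSLW, 5 at day 110, 10 by sow and 5 by sire. Without LW fetuses 484 and 469 there were 2 with age. The second brightest probe, over 13 members, gave 0 in LW, 0 in LWMS, 0 in MSLW, 1 at day 90, 0 at day 110, 1 by sow and 1 by sire. Chosen after seeing the data, the enterocyte covariate gave 2 with age and 1 in MS, and leaving out the 2 fetuses of lowest enterocyte level gave 2 with age, 1 in MS and 7 by sow. Over all probes, calls with age numbered 5583 but 3167 with normexp and 3145 with probes above background on all arrays, which tests fewer probes. Array weights raised all-probe calls from 1265 to 4290 in MS, from 1928 to 3368 in LW, from 2198 to 3667 in MSLW, from 1449 to 2828 at day 90, from 2024 to 6365 at day 110, from 6467 to 13193 by sow and from 2816 to 6263 by sire. Median centring lowered those in LW from 1928 to 1119 and in MSLW from 2198 to 1094. Probes above background on all arrays lowered them to 861 at day 90, 1245 at day 110 and 1749 by sire, and the enterocyte covariate raised them to 2969 in LW and 2329 in MS. Interaction calls over all probes, 7 for breed with age and 157 for sow with age, ranged over the alternatives from 0 to 53 and from 87 to 681. The cause of these shifts was not tested.

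HSD17B7 within the seventh slide had an age difference of -0.00733, against 0.50 over all slides. The sow's effect on INSIG2 lost its call under the deposited matrix (adjusted p = 0.109, with 3 members still called by sow), normexp (0.123), quantile normalization (0.392) and median centring (0.157). Over all alternatives STARD4 with age ranged from 1.12 to 1.55 and SQLE by sire from -0.79 to -0.67, each called throughout. No paired analysis was possible because fetus numbers are unique to a fetus and the sow is not in the labels. Dim probes such as INSIG2 and ABCG8 are limited by signal near background.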
